A study of Mus musculus with 36 samples.

Results

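Hox genes encode homeodomain transcription factors, and mice carry them in 4 clusters named Hoxa, Hoxb, Hoxc and Hoxd. Here they were the protein-coding genes whose GENCODE M21 symbol is Hox followed by a cluster letter and a number, 39 of the 55487 genes of the deposited table of estimated reads. Of these, 11 lay in Hoxa on the minus strand of chromosome 6, 10 in Hoxb on the plus strand of chromosome 11, 9 in Hoxc on the plus strand of chromosome 15 and 9 in Hoxd on the plus strand of chromosome 2 (GRCm38). The choice used names and no measured value.

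Genes with the same number in different clusters are paralogues, copies of a common ancestral gene. Genes near the 3′ end of a cluster, with low numbers, are switched on earlier in the embryo and reach farther towards the head, and genes near the 5′ end, with high numbers, are kept to the lower trunk and tail, an order known as collinearity. The combination left on in a cell marks its level along the body axis, and in the nervous system it helps to set the identity of motor neurons, dorsal horn neurons and sensory neurons and to match them to their targets.

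RNA was sequenced from dorsal root ganglion (DRG), which holds the cell bodies of the sensory neurons with their glia, and from dorsal spinal cord, in which their central axons end. Mice carried a gene knockout (KO) or were wild type (WT), and had a spared nerve injury (SNI), a cut of sciatic nerve branches that leaves the sural branch intact, or were naive. The title of the series gives female mice, and nothing in the labels gave the age, the strain, the time after injury, the vertebral level of the tissue, how many ganglia were pooled, or whether libraries came from separate animals, so p-values measure the spread between these libraries, which may be partly technical. Each tissue had 4 KO SNI, 4 WT SNI, 5 KO naive and 5 WT naive libraries, 36 in all, named below by the letter and number of their titles.

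Depth was 21343031 to 27269039 estimated reads per library. Among the KO naive DRG libraries A2 and A4 were wild type in their titles but knockout in the genotype field and in the column names of the table. Every SNI library had the letter E or F and every naive library A, B or C, so injury and whatever the letter stands for cannot be told apart. WT DRG libraries stood apart in pairs. The mean chi-square per gene between libraries of a group was 7.24 for E1 with F1 and 10.6 for E3 with F3 (WT SNI), but 41.7 to 53 between these pairs. In WT naive DRG it was 10.4 for A3 with C1 and 6.53 for B1 with B3, but 31.4 to 56.7 between them, and in KO DRG it was 4.09 to 14.6. The summed level of 9 sensory neuron markers was 2600 and 2560 CPM in E1 and F1, 1750 and 1730 CPM in E3 and F3, 2290 and 2010 CPM in A3 and C1, and 3110 and 3070 CPM in B1 and B3. Tissue labels fitted their markers: Avil, a sensory neuron gene, was at 374 to 747 CPM (read counts scaled to a common library total, with library sizes scaled by the trimmed mean of M values) in DRG and 0.178 to 1.55 CPM in cord, Slc6a5, the glycine transporter of cord interneurons, at 0.0427 to 3.98 CPM in DRG and 454 to 618 CPM in cord, and Mog, of oligodendrocyte myelin, at 0 to 0.608 CPM in DRG and 222 to 282 CPM in cord. In bulk tissue, fewer cells of a type and less RNA per cell cannot be told apart.

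The stretch of 250 bases before the RefSeq start of transcription is shown for the 4 Hox genes on which the results below turn most: Hoxd1, the single member higher in DRG, Hoxb8, with the highest level of all in cord, Hoxd3, higher after injury in DRG of both genotypes, and Hoxd10, higher after injury in KO DRG. Sequences are from RefSeq on GRCm38.p6, plus strand, 5′ to 3′, and all 4 genes are transcribed to the right. Capitals mark matches, on either strand, to TTTATNG, a form bound by posterior HOX proteins, to TGATNNAT, a form bound by PBX with HOX, to AGGTCA, the half-site of nuclear receptors such as those of retinoic acid, or to TGANTCA, the AP-1 form.
Hoxd1: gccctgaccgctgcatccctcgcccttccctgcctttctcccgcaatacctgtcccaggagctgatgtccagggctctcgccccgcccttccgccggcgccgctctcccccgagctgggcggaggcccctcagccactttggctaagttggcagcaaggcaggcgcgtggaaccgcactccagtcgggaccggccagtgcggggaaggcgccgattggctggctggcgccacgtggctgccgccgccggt
Hoxb8: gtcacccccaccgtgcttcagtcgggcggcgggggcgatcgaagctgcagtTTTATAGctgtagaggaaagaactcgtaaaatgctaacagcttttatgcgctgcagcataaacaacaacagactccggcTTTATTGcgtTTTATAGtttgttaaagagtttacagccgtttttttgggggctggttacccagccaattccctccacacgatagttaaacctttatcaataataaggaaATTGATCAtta
Hoxd3: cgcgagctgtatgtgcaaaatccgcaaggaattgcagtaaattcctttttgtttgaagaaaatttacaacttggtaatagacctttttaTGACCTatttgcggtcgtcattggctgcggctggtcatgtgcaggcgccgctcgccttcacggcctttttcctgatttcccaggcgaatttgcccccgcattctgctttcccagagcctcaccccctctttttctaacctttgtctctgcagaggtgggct
Hoxd10: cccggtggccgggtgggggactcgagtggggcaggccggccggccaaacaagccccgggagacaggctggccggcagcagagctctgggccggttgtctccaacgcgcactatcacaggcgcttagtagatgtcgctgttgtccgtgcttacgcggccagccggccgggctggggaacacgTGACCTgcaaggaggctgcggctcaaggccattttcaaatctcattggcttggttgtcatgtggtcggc
These lie at chr2:74762730-74762979, chr11:96281655-96281904, chr2:74711743-74711992 and chr2:74691641-74691890, in that order. The Hoxd1 stretch held none of the 4 forms and was the richest in CpG, with 24 CpG and 71.6% G or C, against 12 CpG and 44.4% for Hoxb8, 12 CpG and 49.2% for Hoxd3, and 20 CpG and 65.6% for Hoxd10. The Hoxb8 stretch held 3 copies of TTTATNG and 1 of TGATNNAT, and the Hoxd3 and Hoxd10 stretches held 1 AGGTCA each, on the minus strand. No match in these 4 stretches overlapped another.

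For the frequency of these forms, the 250 bases before each start were searched in the RefSeq table of promoters. The 50 bases after the start that each entry also holds were left out. There were 32851 entries, 24 of them for 22 of the 39 Hox genes. TTTATNG was in 9.81% of all promoters and in 2 of the 24 Hox promoters, and 0.0487% of all promoters had 3 or more copies. TGATNNAT was in 7.68% of all and in 4 of 24 Hox promoters, AGGTCA in 14% of all and in 6 of 24, and TGANTCA in 6.75% of all and in 1 of 24. The median promoter had 6 CpG in the same 250 bases. A match describes letters in the window only.

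In naive WT mice both tissues had an extended row of Hox genes on. DRG had a lower total and, at a cut of 1 CPM, a more rostral limit. Levels between genes are compared as TPM, a level per exon length that sums to the same total in every library, computed from the estimated reads and the length of the exons joined. In DRG the highest were Hoxa10 at 22.5 ± 1.65, Hoxd8 at 18.8 ± 2.23, Hoxa9 at 18.6 ± 2.34, Hoxa7 at 15.6 ± 2.37, Hoxb7 at 15.3 ± 1.17 and Hoxb6 at 12.6 ± 1.42 TPM (SD, n = 5). In cord they were Hoxb8 at 188 ± 5.34, Hoxb9 at 114 ± 7.64, Hoxc10 at 110 ± 3.54, Hoxd8 at 66.2 ± 1.97, Hoxd10 at 65.2 ± 3.97 and Hoxb6 at 58.8 ± 2.29 TPM (SD, n = 5). Neighbours such as Hoxd8 and Hoxa9 in DRG, or Hoxb9 and Hoxc10 and also Hoxd8 and Hoxd10 in cord, differed by less than the larger SD of the pair, whereas Hoxb8 in cord stood clear of the next gene. Hoxb8, needed in the mouse dorsal horn for normal sensory responses, had rank 16 in DRG, at 5.39 ± 1.03 TPM (SD, n = 5).

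**Figure D1:**
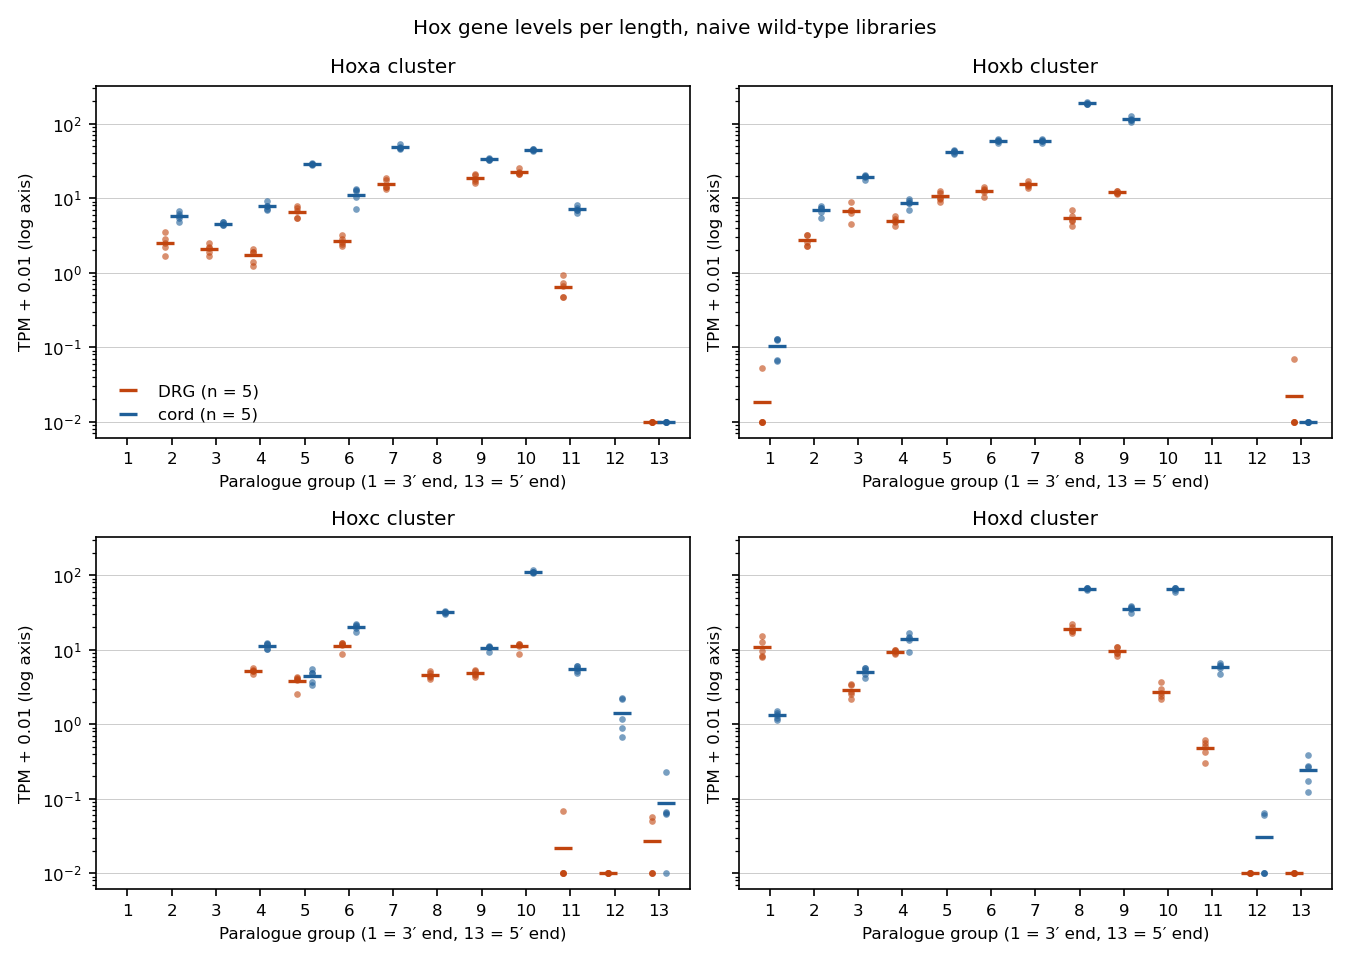
Level of each Hox gene but 1 in naive WT libraries (TPM + 0.01, log axis) by paralogue group and cluster, DRG left and cord right. In DRG the levels drop after paralogue 10, with Hoxa10 the highest at 22.5 TPM, and in cord they extend to paralogue 11, with Hoxb8 the highest at 188 TPM.

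At a cut of 1 CPM, the caudal limit differed between tissues in 3 of the 4 clusters. Hoxa11 and Hoxd11 were under this cut in DRG but not absent. Their means were 0.479 and 0.659 CPM in naive WT DRG, and both had reads in all 18 DRG libraries. With a mean of at least 1 CPM in naive WT libraries as the mark of a gene that is on, the most caudal genes on in DRG were Hoxa10, Hoxb9, Hoxc10 and Hoxd10, and in cord Hoxa11, Hoxb9, Hoxc11 and Hoxd11. By cluster, 6 of 11 Hoxa, 8 of 10 Hoxb, 6 of 9 Hoxc and 6 of 9 Hoxd genes were on in DRG, and 10, 8, 7 and 6 in cord. Paralogues 10 are known in mice for the patterning of the lumbar level, where Hoxc10 and Hoxd10 act in motor neurons, and paralogues 11 for the sacral level.

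Hoxc11 had the largest negative difference of the tested members in every pair of groups, with 9 estimated reads over all 18 DRG libraries and 1428 over all 18 cord libraries. Scaled for depth, its cord level was 164 times that of DRG, with a 95% exact interval of 86 to 359 that covers counting error only. No DRG library exceeded 0.119 CPM, the value of the WT SNI library E1, and no cord library was under 1.52 CPM, the value of the KO naive library C6. The tissues therefore did not overlap.

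Members at 0 in all 18 DRG libraries were Hoxa13, Hoxc12 and Hoxd12, and 3 reads over these libraries, the limit that a count of 0 allows, correspond to 0.00709 CPM. Hoxc12 had 135 reads in cord and was at least 46.4-fold higher there, measured against 3 reads over the DRG libraries. Hoxd12 had 7 reads in cord, at least 2.41-fold higher on the same floor, and Hoxa13 had 3 reads in cord, for which no fold is given. Hoxb1, Hoxb13, Hoxc13 and Hoxd13 had, in that order, 1, 1, 6 and 2 reads over the DRG libraries and 21, 0, 16 and 61 over the cord libraries. Hoxa13, Hoxb1, Hoxb13, Hoxc13, Hoxd12 and Hoxd13 had too few reads to be tested, so 33 of the 39 were tested between tissues, and Hoxc11 and Hoxc12 were tested between tissues and in cord but not within DRG.

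Between tissues, nearly every Hox gene was lower in DRG than in cord, and Hoxd1 was the exception. In naive WT libraries, 1 Hox gene was called higher and 31 lower in DRG at an adjusted p under 0.05 in edgeR's quasi-likelihood test (Benjamini-Hochberg over all genes), and 1 was not called, Hoxc5. The fit joined all 36 libraries and 20626 genes, of which 76.7% were called in this comparison, 40.1% higher and 36.6% lower. The median log2 difference, DRG minus cord, was -1.86 over the Hox genes and 0.0638 over all genes tested. Over the 31 Hox genes that also passed the filter within DRG, of which 29 were lower, it was -1.68. Between naive WT groups, 31 of the 33 Hox genes had no overlap of library values (76.7% of all genes were called), Hoxc11 and Hoxc12 among the 31. The share of all genes without overlap was not counted, here or below, so no excess can be read from such counts.

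Hoxd1, which in mice is expressed in nociceptive sensory neurons and shapes their central and peripheral arbors, was at 5.74, 5.37, 8.66, 7.35 and 5.16 CPM in the WT naive DRG libraries and at 0.845, 0.78, 0.685, 0.791 and 0.942 CPM in the WT naive cord libraries. All DRG values were above all cord values. Its log2 difference was 2.99 ± 0.17 (SE; adjusted p = 1.8e-17), and it was also called higher in DRG among KO naive (3.49 ± 0.17), WT SNI (2.25 ± 0.19) and KO SNI libraries (2.57 ± 0.19). The next members of its cluster, Hoxd3 and Hoxd4, did not share the direction in naive WT libraries.

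The 4 genes with the largest negative differences in naive WT libraries were Hoxc11 at -8.16 ± 0.52 (SE; adjusted p = 3.82e-16), Hoxc12 at -6.52 ± 1.11 (adjusted p = 1.93e-05), Hoxb8 at -5.17 ± 0.10 (adjusted p = 8.33e-32) and Hoxd10 at -4.58 ± 0.12 (adjusted p = 5.55e-28). The values of Hoxc11 and Hoxc12 rest on DRG libraries at or near 0 and depend on the prior count of the fit. Both genes passed the filter on low counts through cord alone, so their p-values are not used as support. Hoxb8 had 4.83, 4.64, 3.43, 5.64 and 4.53 CPM in WT naive DRG and 165, 170, 159, 168 and 164 CPM in WT naive cord. Hoxd10, which acts in mouse lumbar motor neurons, had 1.25, 1.48, 1.65, 1.45 and 2.32 CPM in WT naive DRG and 40.7, 40.2, 35.3, 40.3 and 41.2 CPM in WT naive cord. For both genes the lowest cord library was more than 10 CPM above the highest DRG library. The other 27 genes that were lower lay between -3.63 for Hoxd11 and -0.59 for Hoxd4.

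By paralogue number, medians are given over the 31 Hox genes that also passed the filter on low counts within DRG, without Hoxc11 and Hoxc12, which passed it through cord alone. In naive WT libraries the median log2 difference was -1.16 over 11 genes of paralogues 1 to 4, -1.98 over 15 of paralogues 5 to 9 and -3.47 over 5 of paralogues 10 to 13. In the same order the medians were -1.09, -1.78 and -3.58 in KO naive libraries, -1.14, -2.15 and -3.26 in WT SNI libraries, and -1.17, -2.08 and -3.37 in KO SNI libraries. By cluster the naive WT medians over these genes were -1.44 for Hoxa, -2.01 for Hoxb, -1.17 for Hoxc and -1.86 for Hoxd.

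The other pairs of DRG and cord groups gave like counts. In KO naive libraries 1 Hox gene was higher and 30 lower (37% of all genes higher and 37.8% lower), in WT SNI libraries 1 higher and 29 lower (38.1% and 36.1% of all genes), and in KO SNI libraries 1 higher and 30 lower (36.6% and 36.7%). Over the 31 Hox genes that also passed the filter within DRG, 28, 27 and 28 were lower, in the same order. Library values did not overlap between tissues for 31 Hox genes among KO naive (74.8% of all genes were called), 30 among WT SNI (74.3%) and 29 among KO SNI libraries (73.3%). Hoxc11 was among them in each of these pairs, and Hoxc12 in KO naive and WT SNI libraries. Hoxc5 was not called in any of the 4. Its values were 4.12, 4.36, 3.65, 2.44 and 4.46 CPM in WT naive DRG and 5.52, 3.99, 4.97, 3.41 and 5.03 CPM in WT naive cord, which overlap, with a log2 difference of -0.26 ± 0.16 (SE; adjusted p = 0.129). After injury Hoxd3 was not called either, at 0.13 ± 0.13 in WT (adjusted p = 0.351) and -0.23 ± 0.13 in KO (adjusted p = 0.101), and Hoxd4 not in WT, at -0.19 ± 0.11 (adjusted p = 0.131). The call of Hoxd4 in KO SNI libraries (adjusted p = 0.0417) was lost without DRG library E2, E4 or F2 or cord library E8 or F8, with adjusted p up to 0.244.

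**Figure D2:**
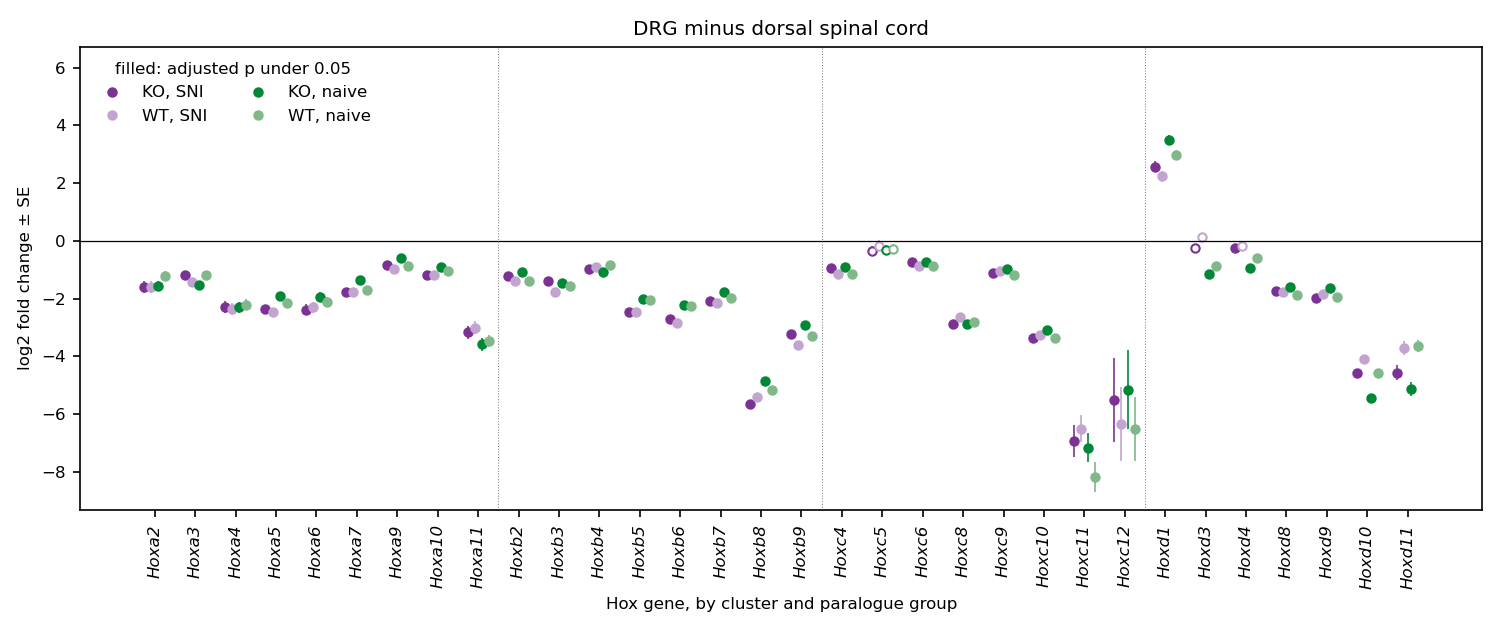
Log2 difference, DRG minus cord, of the tested Hox genes but 1 in the 4 pairs of groups (points, with SE bars), ordered by paralogue group. Hoxd1 lies above 0 in all 4, at 2.99 in naive WT libraries, and Hoxc11 has the lowest value in all 4, at -8.16 in naive WT libraries.

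As a share of the summed Hox level in TPM, DRG was again more rostral than cord. The sum over all 39 genes was 202 to 285 TPM in DRG and 866 to 1120 TPM in cord. Paralogues 10 to 13 carried 15.2 ± 0.53% in KO SNI, 16.8 ± 0.62% in WT SNI, 14.7 ± 0.21% in KO naive and 15.6 ± 0.69% in WT naive DRG, and 22.5 ± 0.73%, 22.9 ± 1.8%, 21.7 ± 0.98% and 22.2 ± 0.42% in cord of the same groups (SD, n = 4 for SNI and n = 5 for naive). No DRG library exceeded 17.3% (E3) and no cord library was under 20.1% (C6), so the tissues did not overlap.

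Other parts of the sum also separated the tissues. Paralogues 11 to 13 carried 0.169 to 0.698% in DRG and 1.09 to 2.62% in cord, paralogues 5 to 9 carried 60.3 to 65.1% and 67.5 to 70.9%, and paralogues 1 to 4 carried 20 to 24.8% and 7.39 to 9.29%. Paralogue 8 alone, mostly Hoxb8 in cord, made up 11 to 13.2% in DRG and 24.7 to 27.1% in cord. By cluster, Hoxa carried 27.7 to 31.7% in DRG and 17.2 to 18.5% in cord, and Hoxb 24.8 to 31.2% in DRG and 43.6 to 48.3% in cord. Hoxd carried 21.1 to 29.3% in DRG and 16.6 to 20.2% in cord, and Hoxc 15.6 to 20.7% in DRG and 17.2 to 19.0% in cord, the 1 cluster whose share overlapped between tissues.

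**Figure D3:**
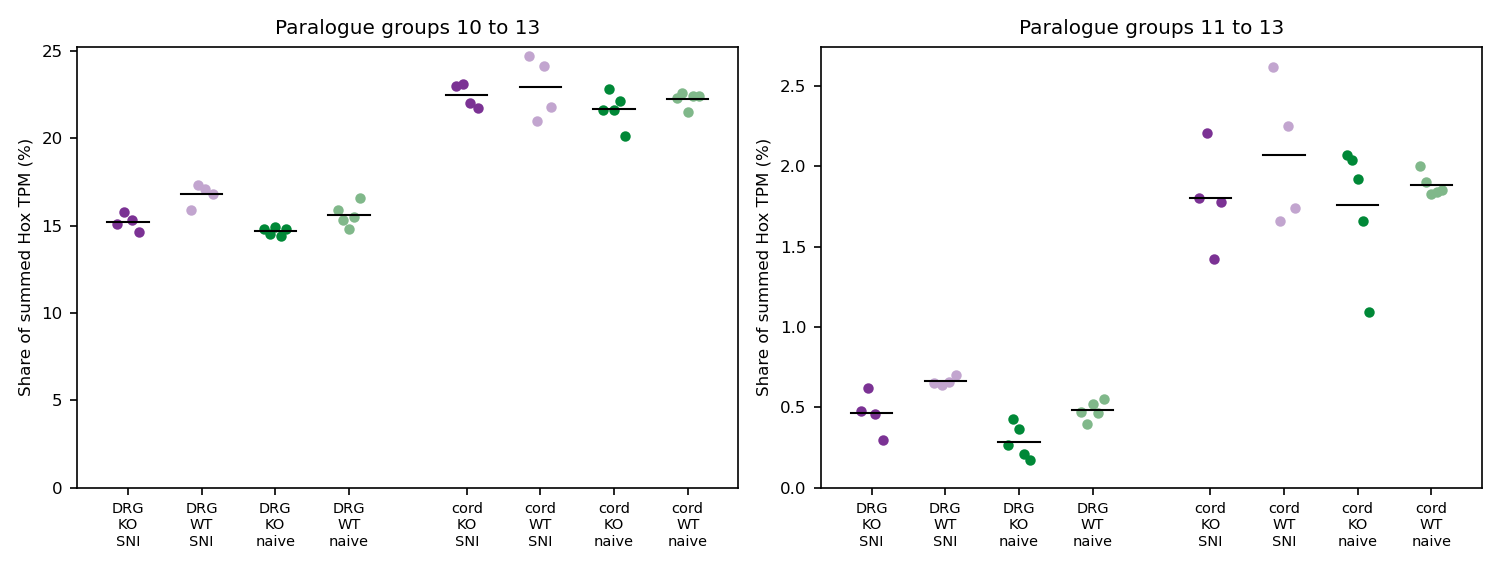
Share of the summed Hox level (percent of TPM) carried by paralogues 10 to 13 (left panel) and 11 to 13 (right panel) in each library (points), by tissue and group, with group means. DRG libraries reach 17.3% at most and cord libraries start at 20.1% for paralogues 10 to 13.

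Single libraries spread along this caudal scale inside a tissue. Among cord libraries, C6 (KO naive) was the lowest of 18 for Hoxa11 (3.82 CPM), Hoxc11 (1.52 CPM), Hoxd10 (31.6 CPM) and Hoxd11 (5.3 CPM), and the highest for Hoxa2 (4.1 CPM), Hoxa3 (12 CPM), Hoxa9 (66.6 CPM) and Hoxc8 (33.1 CPM). Cord library E5 (WT SNI) was the highest for Hoxc11 (5.62 CPM), Hoxd10 (41.7 CPM) and Hoxd11 (11 CPM), and the lowest for Hoxa3 (7.53 CPM), Hoxa5 (14 CPM), Hoxb2 (5.16 CPM), Hoxb4 (5.76 CPM), Hoxb9 (73.9 CPM) and Hoxc8 (25.3 CPM). C6 thus lay at the rostral end and E5 at the caudal end for these genes. They are named because C6 or E5 was their extreme library. Hoxd4, an anterior paralogue, was low in C6, at 12.2 CPM with the next KO naive library at 14.8 CPM. The summed Hox level of E5 was 893 TPM, against a cord median of 1050 TPM. The DRG library with the same number and genotype as C6 in the column names, C2, was the lowest DRG library for Hoxa11 (0.137 CPM) and for the share of paralogues 11 to 13 (0.169%), and the one that goes with E5, E1, was the highest DRG library for Hoxd11 (0.87 CPM) and Hoxc11 (0.119 CPM). These DRG values rest on few reads. Hoxa11 had 3 in C2, and Hoxc11 had 3 in E1 against 2 in E2. Hoxd11 had 21.7 in E1 against 22.0 in F1 (0.863 CPM), nearly a tie. For Hoxa10 the order was the opposite, with C2 the highest DRG library (27.6 CPM) and E1 the lowest (18.3 CPM), and E1 had the lowest share of paralogues 10 to 13 among the WT SNI DRG libraries (15.9%). Without C6, 31 Hox genes were called between tissues in KO naive libraries, and without E5, 30 were called in WT SNI libraries and 0 for injury in WT cord. The level at which tissue was cut was not in the labels, and its part in these values was not tested.

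In DRG after injury, 13 of 31 tested Hox genes changed in KO and 8 in WT, with Hoxd3 and Hoxd4 higher and Hoxd1 and genes of Hoxa and Hoxb lower in both. In KO DRG, SNI against naive, 3 rose and 10 fell (15.1% and 13.3% of all 19496 genes tested in DRG), with a median log2 difference of -0.227 over the Hox genes and 0.0125 over all genes. In WT DRG 2 rose and 6 fell (12.6% and 12.3% of all genes), with medians of -0.146 and -0.011. The groups did not overlap for 11 Hox genes in KO (28.5% of all genes were called) and for 7 in WT (24.9%). Without E1 and F1, 2 rose and 5 fell in WT DRG, and without E3 and F3, 1 rose and 5 fell, and 4 of the 8 genes were still called. Without A3 and C1, 3 rose and 6 fell, and without B1 and B3, 2 rose and 3 fell. Hoxd3, Hoxb5, Hoxb6 and Hoxb9 were called under each of these 4 omissions, with adjusted p up to 0.0456, whereas Hoxa7 was lost in 3, Hoxa9 and Hoxd1 in 2 (without B1 and B3, or E3 and F3) and Hoxd4 in 1 (without E3 and F3). What set these libraries apart, and its part in these values, was not tested. The 8 genes called in WT were all among the 13 called in KO, in the same direction, from libraries not shared between the genotypes. SNI and naive letters were the same in both genotypes, which also shared a fit, so these calls are not independent. The share of all genes called in both genotypes was not counted.

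Hoxd3, an anterior paralogue that patterns the upper neck in mice, was at 6.62, 5.07, 6.71 and 7.96 CPM in KO SNI DRG, against 4.88, 3.82, 4.14, 3.25 and 3.84 CPM in KO naive DRG. In WT it was at 6.8, 7.94, 6.51 and 7.06 CPM in SNI DRG, against 2.83, 3.92, 4.26, 4.44 and 3.77 CPM in naive DRG. All SNI values were above all naive values in both genotypes. The log2 difference was 0.76 ± 0.14 in KO (SE; adjusted p = 0.000482) and 0.89 ± 0.14 in WT (adjusted p = 9.95e-05).

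Hoxd4, its neighbour, which patterns the hindbrain and neck, was at 9.68, 11.4, 10.4 and 12.2 CPM in KO SNI DRG, against 7.74, 7.9, 8.89, 6.73 and 6.76 CPM in KO naive DRG. In WT it was at 11, 13, 11 and 12.7 CPM in SNI DRG, against 9.12, 9.25, 9.02, 8.76 and 8.96 CPM in naive DRG. These groups did not overlap either. The log2 difference was 0.55 ± 0.09 in KO (SE; adjusted p = 0.000142) and 0.41 ± 0.09 in WT (adjusted p = 0.00207). In the annotation 2613 of the 4191 exon bases of Hoxd3 are also exon of Hoxd4 or of Gm28230, a joined transcript of the locus, and 1542 of the 2948 exon bases of Hoxd4 are shared, so how reads were divided between them depends on the estimation and the pair is not independent.

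Hoxd10 rose in KO DRG, at 1.43, 1.69, 1.07 and 1.96 CPM in SNI libraries against 0.738, 1.15, 0.603, 0.903 and 0.776 CPM in naive libraries, with 1 SNI value inside the naive range. Its log2 difference was 0.92 ± 0.22 (SE; adjusted p = 0.00442). In WT it was at 2.41, 2.4, 2.47 and 1.87 CPM in SNI DRG and 1.25, 1.48, 1.65, 1.45 and 2.32 CPM in naive DRG, with overlap, and was not called, at 0.49 ± 0.20 (SE; adjusted p = 0.0836). The difference of the injury effect, KO minus WT, was 0.42 ± 0.30 for Hoxd10 (SE; adjusted p = 0.847).

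Hoxd1 fell in both genotypes. It was at 5.43, 5.16, 5.1 and 4.36 CPM in KO SNI DRG, against 10.7, 8.93, 9.01, 10 and 8.99 CPM in KO naive DRG, with no overlap. In WT it was at 5.18, 3.99, 4.24 and 3.32 CPM in SNI DRG, against 5.74, 5.37, 8.66, 7.35 and 5.16 CPM in naive DRG, where the highest SNI value just passed the lowest naive one. The log2 difference was -0.89 ± 0.15 in KO (SE; adjusted p = 0.000158) and -0.61 ± 0.15 in WT (adjusted p = 0.00508).

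The other falls were in the middle of Hoxb and Hoxa. Hoxb6, a trunk paralogue, was at 4.49, 5.77, 6.04 and 6.32 CPM in KO SNI and 4.23, 5.67, 5.57 and 5.86 CPM in WT SNI DRG, against 8.89, 7.28, 8.57, 8.54 and 9.54 CPM in KO naive and 8.78, 7.05, 7.3, 8.08 and 8.93 CPM in WT naive DRG. All SNI values of both genotypes were below all naive ones, with log2 differences of -0.57 ± 0.12 in KO (SE; adjusted p = 0.00124) and -0.58 ± 0.12 in WT (adjusted p = 0.00104). Hoxb8 was at 3.19, 2.69, 2.73 and 3.6 CPM in KO SNI DRG, against 6.39, 4.97, 4.99, 4.74 and 5.94 CPM in KO naive DRG. It fell in KO by 0.79 ± 0.15 on the log2 scale (adjusted p = 0.000584) without overlap and was not called in WT, with 2.93, 4.24, 3.45 and 4.07 CPM in SNI DRG and 4.83, 4.64, 3.43, 5.64 and 4.53 CPM in naive DRG, which overlap, at -0.32 ± 0.15 (SE; adjusted p = 0.128).

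Hoxa5 fell in KO with a log2 difference of -0.51 ± 0.14 (SE; adjusted p = 0.0113). The remaining falls in KO, Hoxb5, Hoxb9, Hoxa7, Hoxb7, Hoxa10 and Hoxa9, lay between -0.48 and -0.29, and Hoxb7 was not called without library E4 (adjusted p = 0.0661) or without A2 and A4, which left 3 genes higher and 9 lower (adjusted p = 0.0919). In WT the remaining falls were Hoxb9 at -0.55 ± 0.11 (SE; adjusted p = 0.00115), Hoxb5 at -0.43 ± 0.10 (adjusted p = 0.00378), Hoxa7 at -0.26 ± 0.09 (adjusted p = 0.0351) and Hoxa9 at -0.17 ± 0.06 (adjusted p = 0.0307). The call of Hoxa7 was lost without E1, F1, F3, B1 or B3 and that of Hoxa9 without E3, F1, F3, B1 or B3, with adjusted p up to 0.143 and 0.109, and Hoxa9 was also lost in the fit without A2 and A4 (adjusted p = 0.0651). No Hoxc gene was called, and the 6 tested lay between -0.23 and 0.05 in KO and between -0.09 and 0.12 in WT. Of the 31 tested Hox genes none was called for a different injury effect between genotypes in DRG by edgeR (0.0256% of all genes were, 0.0205% in the positive and 0.00513% in the negative direction), 3 had an unadjusted p under 0.05 (Hoxa3, Hoxb8 and Hoxd9) and DESeq2 called 0. For Hoxb8, KO minus WT, it was -0.47 ± 0.21 (SE; adjusted p = 0.835).

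**Figure D4:**
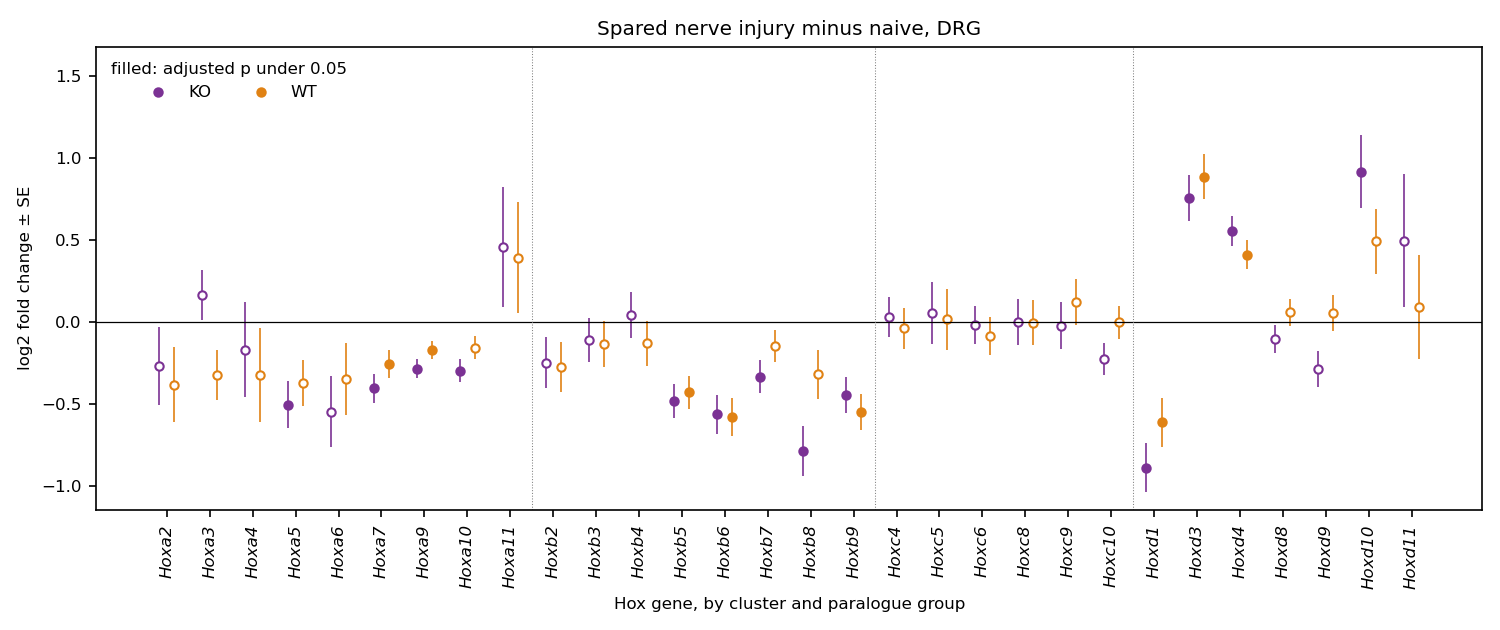
Log2 difference, SNI minus naive, of the tested Hox genes but 1 in KO and WT DRG (points, with SE bars), by cluster and paralogue group. Hoxd3 and Hoxd4 lie above 0 and Hoxd1, Hoxb5, Hoxb6 and Hoxb9 below 0 in both genotypes, and the Hoxc genes lie between -0.23 and 0.12.

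Marker levels of some cell types moved with injury in DRG. The summed level of 9 sensory neuron markers, all with a mean of at least 1 CPM, was 2210 to 2650 CPM in KO SNI and 1730 to 2600 CPM in WT SNI DRG, against 3000 to 3450 CPM in KO naive and 2010 to 3110 CPM in WT naive DRG. The summed level of 5 microglia and macrophage markers, all detected at that level too, was 129 to 160 CPM in KO SNI and 150 to 238 CPM in WT SNI DRG, against 47.5 to 67.4 CPM in KO naive and 67.2 to 102 CPM in WT naive DRG. The 6 fibroblast markers, likewise, summed to 2150 to 2930 CPM in KO SNI and 2200 to 4010 CPM in WT SNI DRG, against 1920 to 2370 CPM in KO naive and 2070 to 3760 CPM in WT naive DRG. The fibroblast ranges overlapped between SNI and naive DRG in both genotypes, and the sensory neuron ranges overlapped in WT. The 8 satellite glia and Schwann cell markers also overlapped in both genotypes. They summed to 6070 to 7210 CPM in KO SNI and 6050 to 8260 CPM in KO naive DRG. In WT they summed to 6500 to 7440 CPM in SNI and 6630 to 7900 CPM in naive DRG. Sensory neuron markers were thus lower after injury in KO without overlap, as were Hoxd1, Hoxb6, Hoxb8 and other Hox genes. Hoxd3 and Hoxd4 were higher without overlap. The part of cell makeup in the Hox changes was not tested.

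Between genotypes in naive DRG, 6 Hox genes were called. In KO against WT naive libraries, 3 of 31 tested Hox genes were higher and 3 lower (12.8% and 15.4% of all genes), and the groups did not overlap for Hoxd1, Hoxd10 and Hoxd11 (28.2% of all genes were called). Hoxd1 was higher in all 5 KO libraries, with the values given above, by 0.54 ± 0.14 on the log2 scale (SE; adjusted p = 0.00923). Hoxd10 was lower in all 5, at -0.99 ± 0.21 (SE; adjusted p = 0.00358). Hoxd11, whose group is known for the sacral level, was at 0.287, 0.311, 0.241, 0.135 and 0.274 CPM in KO naive DRG, against 0.833, 0.44, 0.537, 0.726 and 0.761 CPM in WT naive DRG, at -1.40 ± 0.35 (SE; adjusted p = 0.00915).

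Hoxb9 at 0.32 ± 0.10 (SE; adjusted p = 0.028), Hoxa9 at 0.20 ± 0.05 (adjusted p = 0.0117) and Hoxd4 at -0.26 ± 0.09 (adjusted p = 0.0322) were the other calls, and their KO and WT values overlapped. Without A2 and A4, the libraries of contradicting labels, 3 were higher and 2 lower, and Hoxd4 was no longer called, at -0.28 (adjusted p = 0.0796). Among single omissions, that of A2, B4, C2, A1, A3 or C1 also ended the call of Hoxd4, and that of A2, B2, B4, A1 or A3 the call of Hoxb9, with adjusted p up to 0.0905 and 0.0891. Without A2 and A4, Hoxd1 was at 0.52 (adjusted p = 0.0439), Hoxd10 at -1.12 (adjusted p = 0.0111) and Hoxd11 at -1.59 (adjusted p = 0.0319). Without the WT libraries A3 and C1, 2 of the 6 were called, Hoxd10 at -0.81 (adjusted p = 0.0369) and Hoxd11 at -1.46 (adjusted p = 0.0318), and Hoxd1 was not, at 0.39 (adjusted p = 0.099). Without B1 and B3, 2 were higher and 3 lower, and Hoxb9 was not called (adjusted p = 0.0758). The summed sensory neuron markers were 3000 to 3450 CPM in KO naive and 2010 to 3110 CPM in WT naive DRG, and the 5 blood markers, all with a mean of at least 1 CPM, summed to 189 to 600 CPM in KO naive and 721 to 3440 CPM in WT naive DRG, and their part was not tested. Hoxd10 shares 104 and Hoxd11 455 exon bases with Gm28309, a transcript of the same locus.

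**Figure D5:**
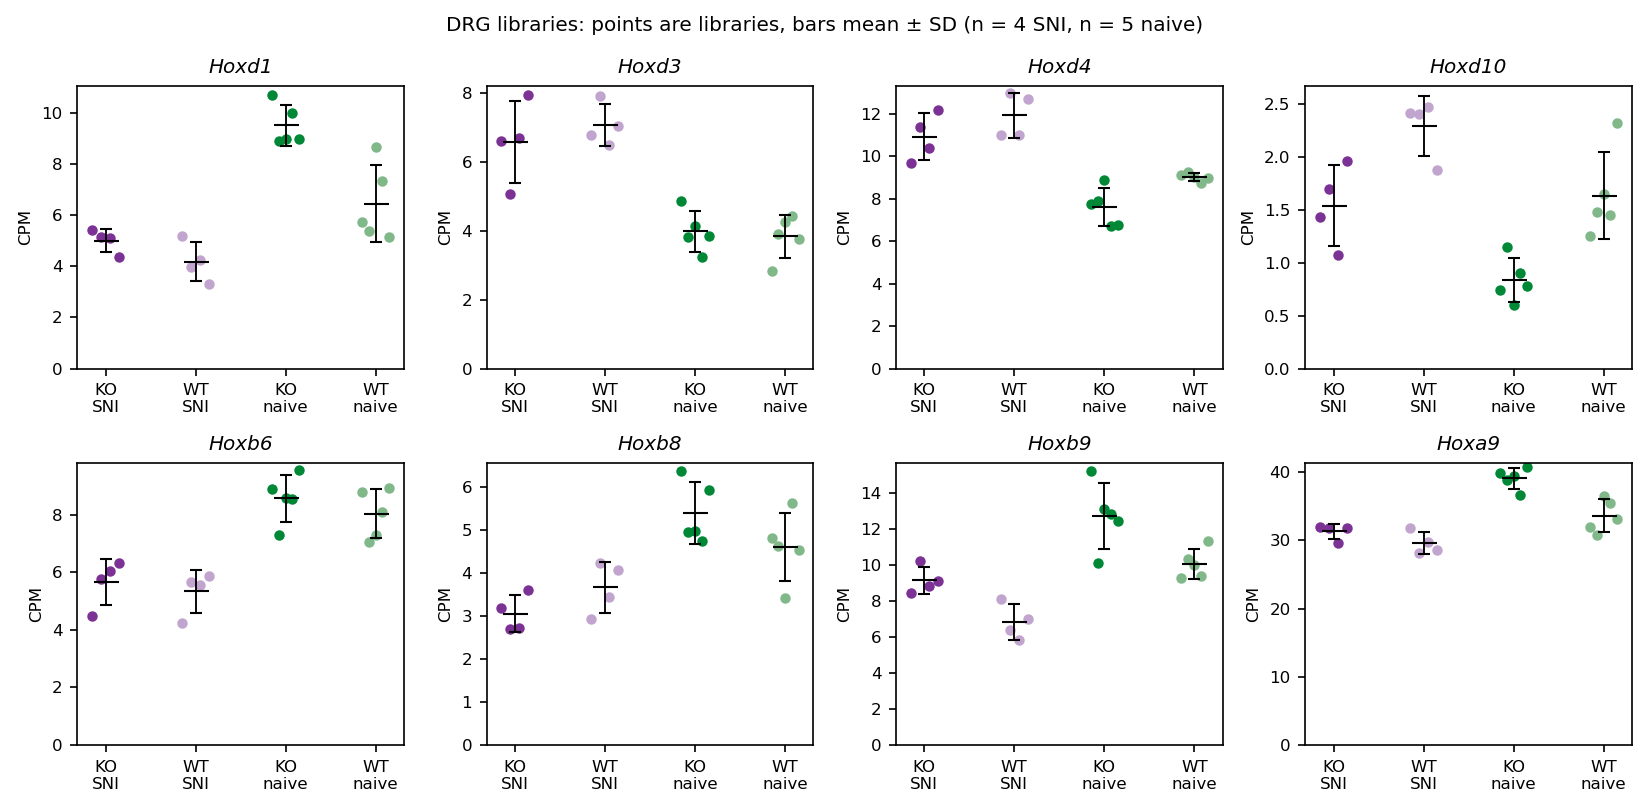
CPM of Hoxd1, Hoxd3, Hoxd4, Hoxd10, Hoxb6, Hoxb8, Hoxb9 and Hoxa9 in each DRG library (points), with mean and SD of the 4 groups. Hoxd3 is at 5.07 to 7.96 CPM in the SNI libraries of both genotypes and at 2.83 to 4.88 CPM in the naive ones, and Hoxd1 is highest in KO naive libraries.

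In KO SNI against WT SNI DRG, 1 Hox gene was called, Hoxb9, higher in KO (5.1% of all genes were called, 2.39% higher and 2.71% lower). Hoxb9, of a paralogue group that patterns the thoracic level in mice, was at 8.42, 10.2, 8.82 and 9.08 CPM in KO SNI DRG, against 8.11, 6.39, 5.8 and 6.98 CPM in WT SNI DRG, with no overlap. Its log2 difference was 0.43 ± 0.12 (SE; adjusted p = 0.0436), and the call was lost when KO SNI library E2, E4, F2 or F4 or WT SNI library E3, F1 or F3 was left out, with adjusted p from 0.0194 to 0.161 over the 8 single omissions. It was also lost without E3 and F3 (adjusted p = 0.279), but not without E1 and F1 (adjusted p = 0.0272). Hoxd10 at -0.57 ± 0.22 (SE; adjusted p = 0.142) and Hoxd11 at -0.99 ± 0.37 (adjusted p = 0.135) were not called.

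In dorsal cord no Hox gene was called after injury. Of 33 tested, 0 were called in KO, SNI against naive (4.42% of all 18843 genes tested in cord, 3.79% higher and 0.626% lower), with 1 at an unadjusted p under 0.05 and 0 called by DESeq2. In WT 0 were called by edgeR (2.88% of all genes, 2.61% higher and 0.271% lower), with 7 at an unadjusted p under 0.05 and 1 called by DESeq2. Median log2 differences were -0.0681 over the Hox genes in KO and -0.0794 in WT. The groups did not overlap for 0 Hox genes in KO and for 3 in WT, Hoxa7, Hoxb9 and Hoxc8, all lower after injury (4.42% of all genes were called in KO and 2.88% in WT). A call is a different measure from no overlap, for which no share of all genes was counted. Microglia and macrophage markers in cord summed to 335 to 358 CPM in KO SNI and 326 to 354 CPM in WT SNI, against 145 to 170 CPM in KO naive and 153 to 175 CPM in WT naive libraries.

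Between genotypes in naive cord, 2 of 33 Hox genes were higher in KO and 3 lower (9.79% and 9.94% of all genes, 19.7% in all). Hoxd3 was at 10.1, 9.0, 7.89, 8.07 and 8.94 CPM in KO, against 7.34, 6.01, 7.76, 7.66 and 6.55 CPM in WT, at 0.31 ± 0.09 on the log2 scale (SE; adjusted p = 0.0185). Hoxd8 was at 49.3, 53.2, 49.6, 52.7 and 58.3 CPM in KO, against 60.3, 60.4, 59.4, 59.7 and 63.3 CPM in WT, at -0.21 ± 0.04 (adjusted p = 0.00149). The groups did not overlap for either gene.

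Hoxb3 at 0.22 ± 0.06 (SE; adjusted p = 0.0148), Hoxa7 at -0.26 ± 0.05 (adjusted p = 0.00151) and Hoxc10 at -0.12 ± 0.04 (adjusted p = 0.0374) were the others. Without C6 the counts were again 2 and 3, but Hoxc10 at -0.11 was no longer among them. Its call was also lost without A6, A8, B6, A5, A7 or B7, and that of Hoxd3 without A6 or A7, with adjusted p up to 0.115 and 0.0633. In KO SNI against WT SNI cord 0 of 33 were called by edgeR (6.26% of all genes, 2.95% higher and 3.31% lower), with 2 at an unadjusted p under 0.05 and 0 by DESeq2, and for a different injury effect between genotypes 0 were called (0% of all genes), with 4 at an unadjusted p under 0.05 and 0 by DESeq2. For Hoxd8 the KO SNI values of 52.6, 50.7, 55.9 and 53.3 CPM were all below the WT SNI values of 58.1, 56.2, 59.2 and 60.0 CPM in cord.

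Whether injury acted differently on Hox genes in DRG and cord was tested in the joint fit, a test chosen after seeing the data. In KO, DRG minus cord, 3 of 33 Hox genes had a more positive injury effect in DRG and 10 a more negative one (6.69% and 10.5% of all genes, 17.2% in all). In WT 1 was more positive and 2 more negative (5.59% and 6.92% of all genes, 12.5% in all). Hoxd3 had a difference of 0.91 ± 0.17 in KO (SE; adjusted p = 0.000202) and 1.01 ± 0.17 in WT (adjusted p = 5.97e-05). Hoxb8 had -0.77 ± 0.15 in KO (adjusted p = 0.000238) and -0.23 in WT (adjusted p = 0.369), and Hoxd1 had -0.91 ± 0.27 in KO (adjusted p = 0.0154, and 0.0735 without cord library E8) and -0.74 in WT (adjusted p = 0.0656).

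The noise of Hox genes between libraries was near that of other genes. The biological coefficient of variation had a median of 0.123 over the tested Hox genes and 0.113 over all genes in DRG, and 0.0775 and 0.0755 in cord. Reads of 16 members could be shared with another gene, since 9 overlap exons on the same strand and 10 on the opposite strand, among them Hoxa11, with 800 bases shared with the antisense Hoxa11os, and Hoxb3, with 2250 bases shared with Hoxb3os. Whether the counting used the strand was not given in the sources used here.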

How the data were processed

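RNA of mouse DRG and dorsal cord was sequenced in 36 libraries. The extraction kit was RNeasy Plus Universal and the library kit TruSeq Stranded mRNA from 1 µg, per the labels' protocols. The tools named are FastQC 0.11.5, HISAT2 and RSEM on GRCm38, per the submitters' processing notes. For the counting, strand setting and annotation are not given in the sources used here. Expected counts fill the deposited raw table for 55487 genes, of which 55227 matched GENCODE M21. In this deposited table the E1 column, recorded as unit other, has 9150 cells with decimal commas, read as points, and 1 cell holding a letter, of no Hox gene, restored from the normalised table. The normalised table deposited by the authors holds signal values for 52999 genes, each column being the raw one times 1 factor, and was otherwise used only in alternatives.

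Expected counts were rounded and fitted with edgeR 4.0.16 (R 4.3.3; quasi-likelihood F test, trimmed mean of M values, filterByExpr, robust), with Benjamini-Hochberg adjustment over all genes tested and a threshold of 0.05. DRG minus cord and its difference with injury came from 1 fit of 36 libraries. SNI, KO and their interaction came from a fit per tissue of 18 libraries, with 19496 genes in DRG and 18843 in cord. SE was taken as log2 fold change over the root of F. TPM was computed from expected counts and joined exon length. Segment shares and levels carry no test. Fits were checked on simulated data with known changes. Alternatives were DESeq2 1.42.0, limma 3.58.1 on log2(value + 1), RLE factors, no filter, only the groups compared, a replicate block, no A2 and A4, omission of each library and, chosen after seeing the data, of each of 4 pairs of WT DRG libraries. Python 3.11.15 made the shares and figures.

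The members and gene lists were chosen with earlier results of these data known. Named were all Hox genes called in a comparison where 12 or fewer, otherwise the 4 highest and 4 lowest log2 fold changes, the 6 highest levels per tissue, members at 0 throughout a tissue, and the most caudal gene at 1 CPM or more per cluster. Results on 2 genes, 1 of them a Hox gene, are not reported here. Intervals and floors cover counting error only. The numbers in the column names did not pass the check for pairing in every pair, as 15 of 18 DRG libraries correlated best with their own number. The main fits did not pair libraries by them. They entered only that check, the replicate block and the comparison of C2 with C6 and of E1 with E5.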

Additional observations from a re-analysis of the deposited data

Results flagged for a closer look

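The highest or lowest library stood apart from the rest of its group, by Dixon's gap ratio at 95%, in 18 of 230 groups examined (17 Hox levels with a mean of at least 1 CPM and 1 segment share), that is 7.83%, and chance gives about 1 in 20. In cord library C6 (KO naive), Hoxd11 was low at 5.3 CPM, next 9.01, Hoxd4 low at 12.2, next 14.8, and Hoxc8 high at 33.1, next 27.8. In cord library B5 (WT naive), Hoxb9 was high at 108 CPM, next 97.1, Hoxd10 low at 35.3, next 40.2, and the share of paralogues 10 to 13 low at 21.5%, next 22.3%. In DRG library B2 (KO naive), Hoxa5 was high at 5.23 CPM, next 4.52, and Hoxb2 low at 2.61, next 3.46. In DRG library F3 (WT SNI), Hoxd8 was low at 14.8 CPM, next 18.1, and Hoxd10 low at 1.87, next 2.4.

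The other 8 were single genes in a library. In DRG, Hoxa9 was low at 29.7 CPM in F2 (KO SNI), next 31.8, and Hoxc6 low at 7.04 in E1 (WT SNI), next 8.6. In cord after injury, Hoxa2 was low at 2.02 CPM in E6 (KO), next 3.24, Hoxc4 low at 8.73 in F6 (KO), next 9.42, Hoxc9 low at 7.11 in E5 (WT), next 8.7, and Hoxc10 high at 71.3 in F5 (WT), next 63.8. In naive cord, Hoxa5 was high at 17.9 CPM in B8 (KO), next 16.9, and Hoxd8 high at 63.3 in C5 (WT), next 60.4.

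The injury effect, SNI minus naive, differed between DRG and cord for some Hox genes, in a test chosen after seeing the data (edgeR's quasi-likelihood test, adjusted over all genes; log2, DRG minus cord). In KO it was more negative in DRG for Hoxd1 at -0.91 ± 0.27 (SE; adjusted p = 0.0154), Hoxb8 at -0.77 ± 0.15 (0.000238), Hoxb6 at -0.51 ± 0.12 (0.0031), Hoxa5 at -0.47 ± 0.15 (0.0195), Hoxb5 at -0.45 ± 0.11 (0.00372), Hoxa7 at -0.45 ± 0.10 (0.00225), Hoxb7 at -0.30 ± 0.11 (0.0474), Hoxc10 at -0.29 ± 0.10 (0.0404), Hoxa10 at -0.26 ± 0.08 (0.0254) and Hoxa9 at -0.23 ± 0.08 (0.0393). It was more positive in DRG for Hoxd3 at 0.91 ± 0.17 (adjusted p = 0.000202), Hoxd10 at 0.88 ± 0.21 (0.00339) and Hoxd4 at 0.67 ± 0.15 (0.00172). Over the 24 other settings in KO, the call of Hoxb7 was lost in 20, that of Hoxa9 in 19, that of Hoxc10 in 18, that of Hoxa10 in 13, that of Hoxa5 in 5 and that of Hoxd1 in 1. The replicate block ended the calls of Hoxb7 (adjusted p = 0.0634), Hoxc10 (0.0878) and Hoxa9 (0.0607). In WT the differences were 1.01 ± 0.17 for Hoxd3 (SE; adjusted p = 5.97e-05), -0.57 ± 0.12 for Hoxb6 (0.00125) and -0.41 ± 0.11 for Hoxb5 (0.00936).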

How the results depend on the processing

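None of the 173 called gene results reversed its direction, and Hox genes that were not called were not followed in this way. Of 2924 gene values recomputed under other settings, 2763 kept direction and side of the threshold and 161 lost the call. In all, 153 of 173 called gene results were never lost. The call of Hoxb9 between KO and WT SNI DRG, 1 Hox gene, gave 0 without a filter, with only the libraries of the 2 groups, and with the letter block. Counts of 0 in cord after injury became 1 in KO without a filter, and in WT 1 with DESeq2, 1 with limma and 2 with only the libraries compared. In fits chosen after seeing the data, without a pair of WT DRG libraries that stood apart, the count for SNI in WT DRG was 5 without B1 and B3, that for KO in naive DRG was 2 without A3 and C1, and that for KO in SNI DRG was 0 without E3 and F3. The 13 differences of the injury effect between tissues in KO became 8 without a filter. Shares of paralogues 10 to 13 from CPM with no length scaling were 14.5% in KO SNI and 15.9% in WT SNI DRG, and in cord 19.6% in KO SNI, 20% in WT SNI, 18.9% in KO naive and 19.3% in WT naive. The causes were not tested.

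Leaving out each library in turn gave 13 to 14 Hox calls for SNI in KO DRG, 6 to 9 in WT DRG, 0 to 1 in KO cord (1 without B8) and 0 to 1 in WT cord (1 without F5). For KO against WT it gave 4 to 6 in naive DRG, 0 to 1 in SNI DRG, 3 to 6 in naive cord (3 without A6 or A7) and 0 in SNI cord, and it gave 8 to 14 (8 without E4, E8, F6 or F8) and 3 to 5 (5 without C1) for the tissue difference of injury in KO and WT. For DRG against cord it gave 30 to 33 in KO SNI, 29 to 30 in WT SNI, 31 in KO naive and 32 in WT naive.

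The replicate block by the number in the column names gave 32 Hox calls between tissues in KO SNI, 30 in WT SNI, 32 in KO naive and 32 in WT naive, and 11 and 3 for the tissue difference of injury in KO and WT. The block by title letter gave 6 in naive DRG, 0 in SNI DRG, 5 in naive cord and 0 in SNI cord for KO against WT. DRG and cord libraries of the same number correlated at 0.024 to 0.296 in their deviations, over 0.1 in 14 of 18 pairs, and 15 of 18 DRG libraries correlated best with their own number, a hint from the data and not from the design. Depth limits paralogues 11 to 13 in DRG, where 3 reads over 18 libraries are 0.00709 CPM.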

Other observations

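HOX proteins bind DNA with cofactors of the TALE homeodomain class. Of 9 tested PBX, MEIS and PKNOX genes, 1 was higher and 8 lower in naive WT DRG than in naive WT cord in the joint edgeR fit at an adjusted p under 0.05 (40.1% of all genes were higher and 36.6% lower). Meis1 averaged 3.72 ± 0.36 CPM in WT naive DRG and 20.8 ± 1.3 CPM in WT naive cord, Meis2 7.84 ± 1.08 and 40.9 ± 1.53 CPM, and Pbx3 9.75 ± 0.62 and 38.3 ± 0.83 CPM (SD, n = 5). In naive DRG 4 of the 9 were higher in KO than in WT (12.8% of all genes), with Meis2 at 11.9 ± 1.56 CPM in KO and 7.84 ± 1.08 CPM in WT (SD, n = 5). After injury 3 of 9 fell in KO DRG (13.3% of all genes) and 1 of 9 in WT DRG (12.3%), among them Pknox2 by 0.50 in KO and by 0.45 in WT on the log2 scale. In cord 0 of the 9 were called for injury (4.42% of all genes in KO and 2.88% in WT) or genotype (19.7% in naive and 6.26% in SNI libraries).

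Of 21 noncoding genes of the Hox clusters, 15 were tested between tissues, and 1 was higher and 10 lower in naive WT DRG than in cord (40.1% and 36.6% of all genes). Only 11 of the 21 passed the filter on low counts within DRG, so some of the 15 entered through cord alone. The count of lower genes was not repeated over those 11. Hotair, an antisense transcript of the Hoxc cluster, was at 0 to 0.04 CPM in WT naive DRG and 1.28 to 2.43 CPM in WT naive cord, which do not overlap. Gm28230, whose exons overlap Hoxd3 and Hoxd4, rose after injury by 0.54 in KO DRG and 0.32 in WT DRG (log2). Cyp26a1, which degrades retinoic acid, an embryonic inducer of Hox genes, averaged 5.19 ± 0.69 CPM in KO SNI and 5.18 ± 0.58 CPM in WT SNI DRG (SD, n = 4), against 1.16 ± 0.15 CPM in KO naive and 1.66 ± 0.27 CPM in WT naive DRG (SD, n = 5), without overlap, with log2 differences of 2.19 ± 0.14 in KO and 1.66 ± 0.14 in WT (SE).

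En1, a homeobox gene that marks the midbrain and hindbrain border in the embryo and is also on in cord interneurons, was at 0.712 to 1.92 CPM in KO SNI and 0.291 to 1.07 CPM in WT SNI DRG, against 0 to 0.0804 CPM in KO naive and 0 to 0.0358 CPM in WT naive DRG. These ranges do not overlap. In cord it was at 2.08 to 3.02 CPM in KO SNI and 1.5 to 2.8 CPM in WT SNI, against 0.793 to 1.31 CPM in KO naive and 1.21 to 1.69 CPM in WT naive libraries, and was called in KO, at 1.22 ± 0.19 (log2, SE; adjusted p = 9.14e-05). In DRG En1 passed the filter on low counts through SNI libraries alone, so no test is drawn from its gap to naive libraries. It was 1 of 12 listed genes of brain regions anterior to the Hox domain, 2 of them tested in DRG. The other, Dmbx1, averaged 0.401 CPM in KO SNI and 1.73 CPM in WT SNI DRG. In naive DRG it averaged 0.145 CPM in KO and 0.0993 CPM in WT, and it was called for injury in WT only. Among 20 chromatin regulators of Hox clusters, 4 rose and 0 fell after injury in KO DRG and 3 rose and 3 fell in WT DRG (15.1% and 13.3% of all genes in KO, 12.6% and 12.3% in WT), with the H3K27 demethylase gene Kdm6b higher in both, by 0.28 in KO and 0.25 in WT (log2).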
